A study of Homo sapiens with 3 samples.

Results

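The FOX and SOX genes encode families of DNA-binding transcription factors, and their starts and surroundings were examined for histone marks in the established human line H2087, derived from a lung adenocarcinoma. Members were the autosomal protein-coding genes whose symbol names a forkhead box (FOX, classes A to S) or SRY-related HMG box (SOX) gene. FOXA1 and FOXA2 were left out by the rule. It chose genes by symbol, used no measured value, and gave 66 of 19229 autosomal protein-coding genes, 48 of them FOX and 18 SOX. FOXL2NB matched the rule through its symbol, although it is named for its position beside FOXL2 and encodes no forkhead factor.

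The cells were untreated, and chromatin was precipitated for histone H3 with acetyl groups on lysine 27 (H3K27ac) or with trimethylated lysine 4 (H3K4me3). Each mark had 1 library (n = 1), and the labelled input library was not analysed here. No value therefore has a replicate, no test between the marks or between genes was made, and intervals are exact Clopper-Pearson 95% intervals that cover counting error only. A single cell line was used, so the values describe that line.

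FOX proteins bind DNA through a winged-helix fold, and SOX proteins bend DNA through an HMG domain. Many of them are switched on in one cell lineage and kept silent in others, while a few, such as FOXJ2, FOXJ3, FOXK1, FOXK2 and FOXO3, are made in most tissues. H3K4me3 marks the starts of genes that are active or ready to be transcribed, and H3K27ac marks active starts and distal enhancers.

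The peak list for H3K4me3 held 18585 peaks and that for H3K27ac 24096. The value given with each peak had no header. From its range it was taken as −log10 q, where q is the false discovery rate of the peak caller. It ranks peaks inside a list only, and grows with sequencing depth. Its median was 2.97 for H3K4me3 and 2.65 for H3K27ac, and the median peak was 305 and 284 bp wide. Read counts are not part of the lists, so the depth is unknown, and a start without a peak cannot be told apart from a start with too few reads. The epithelial genes EPCAM, CDH1, KRT7, KRT8, KRT18 and KRT19 all had H3K4me3 at their start, and 5 of these 6 had H3K27ac. Of the lung adenocarcinoma lineage genes, NKX2-1 had both marks, and NAPSA and SFTPB had neither. None of the 7 markers of blood, fibroblast, endothelial or neuroendocrine cells found in the annotation had a peak of either mark at its start.

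Letters of the regions that the results below turn on are shown first, 5′ to 3′ in build hg19. They were chosen after the values had been seen. The 200 bases before 3 gene starts are given, with CG pairs in capitals, because CG-rich FOX and SOX starts were found both with and without marks. FOXK2 had both marks and 32 CG pairs in these bases, FOXI3 had neither mark and 28, and FOXN1 had neither mark and 7.
FOXK2 upstream, chr17:80477389-80477588, plus strand: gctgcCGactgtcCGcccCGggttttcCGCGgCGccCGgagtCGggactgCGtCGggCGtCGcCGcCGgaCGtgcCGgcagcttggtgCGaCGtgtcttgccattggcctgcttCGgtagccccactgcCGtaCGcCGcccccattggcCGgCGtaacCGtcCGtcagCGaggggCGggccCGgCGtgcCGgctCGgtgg
FOXI3 upstream, chr2:88752212-88752411, minus strand: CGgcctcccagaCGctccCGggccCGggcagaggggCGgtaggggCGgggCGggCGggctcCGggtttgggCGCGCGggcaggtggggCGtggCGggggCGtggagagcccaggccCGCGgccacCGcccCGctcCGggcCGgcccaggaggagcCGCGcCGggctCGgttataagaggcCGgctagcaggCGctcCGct
FOXN1 upstream, chr17:26833061-26833260, plus strand: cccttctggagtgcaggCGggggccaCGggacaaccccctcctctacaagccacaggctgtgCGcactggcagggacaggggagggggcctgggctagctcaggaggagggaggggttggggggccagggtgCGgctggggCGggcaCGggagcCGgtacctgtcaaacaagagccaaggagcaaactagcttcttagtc
The next set lies around SOX2, where each of the 3 H3K27ac peaks within 50 kb of the gene held the letters CATTGT or their reverse complement ACAATG, the core of many SOX binding sites, shown in capitals. The 2 narrower peaks are given, and the widest was 589 bp.
SOX2 near peak, chr3:181429085-181429300, plus strand: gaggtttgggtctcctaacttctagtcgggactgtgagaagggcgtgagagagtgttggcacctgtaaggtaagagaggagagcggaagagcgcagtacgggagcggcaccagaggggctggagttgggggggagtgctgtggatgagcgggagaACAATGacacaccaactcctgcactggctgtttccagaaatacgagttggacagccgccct
SOX2 downstream peak, chr3:181433674-181433864, plus strand: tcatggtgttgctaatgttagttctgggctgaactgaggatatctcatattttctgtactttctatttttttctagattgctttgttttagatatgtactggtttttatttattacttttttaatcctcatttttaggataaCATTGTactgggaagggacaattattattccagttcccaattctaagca
The last is an H3K27ac peak far from SOX9, again with CG pairs in capitals.
SOX9 distal peak, chr17:70418090-70418375, plus strand: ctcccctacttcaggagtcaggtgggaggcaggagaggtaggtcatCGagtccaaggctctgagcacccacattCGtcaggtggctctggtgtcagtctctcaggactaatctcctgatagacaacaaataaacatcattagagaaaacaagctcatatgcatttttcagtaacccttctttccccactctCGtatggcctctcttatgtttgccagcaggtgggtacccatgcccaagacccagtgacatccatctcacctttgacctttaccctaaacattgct

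Of the 66 FOX and SOX genes, 26 had an H3K4me3 peak within 1 kb of their start, which is 39.4% (27.6 to 52.2), beside 39.9% of all autosomal protein-coding genes. H3K27ac was found at 16 starts (24.2%, 14.5 to 36.4), beside 24.7% of all genes. Both marks were present at 11 starts (16.7%, 8.62 to 27.9, beside 19.4%), and 35 starts had neither (53.0%, 40.3 to 65.4, beside 54.9%). Each of these shares lay near that of all genes, and the interval of the FOX and SOX genes contained it. Within the families, H3K4me3 was found at 18 of 48 FOX starts and 8 of 18 SOX starts, and H3K27ac at 12 and 4. H3K27ac accompanied H3K4me3 at 11 of 26 marked starts (42.3%, 23.4 to 63.1), beside 48.7% for all genes.

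**Figure D1:**
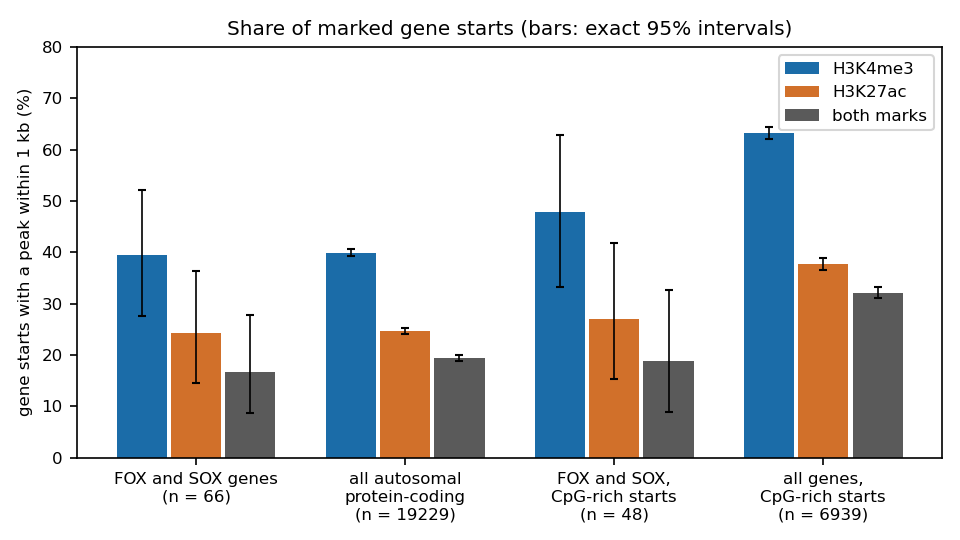
Share of gene starts (%) with an H3K4me3 peak, an H3K27ac peak or both within 1 kb, for the FOX and SOX genes, for all autosomal protein-coding genes, and for the CpG-rich starts of each. Error bars are exact 95% intervals. The shares of the 66 genes sit beside those of all 19229 (39.4% and 39.9% for H3K4me3), whereas among CpG-rich starts the bars of the FOX and SOX genes are the lower ones (47.9% and 63.2%).

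FOX and SOX starts were richer in CG pairs than the starts of all genes. The CpG observed/expected ratio over 1 kb on either side of the start had a median of 0.766 in FOX and SOX genes (interquartile range 0.649 to 0.849) and of 0.616 in all genes (0.324 to 0.742). By a ratio of at least 0.6 with a GC content of at least 55%, 48 of the 66 starts were CpG-rich (72.7%, 60.4 to 83.0), beside 36.1% of all starts. CpG-rich starts carry H3K4me3 in most human cells as a rule, so the shares were also set beside those of the same class. Among CpG-rich starts, 23 of 48 FOX and SOX genes had H3K4me3 (47.9%, 33.3 to 62.8), and 63.2% of all (62.1 to 64.4). For H3K27ac the shares were 27.1% (15.3 to 41.8) and 37.7%, for both marks 18.8% (8.95 to 32.6) and 32.1%, and for neither 43.8% (29.5 to 58.8) and 31.2%. The FOX and SOX shares with each mark were lower in this class, and its interval ended just below the H3K4me3 share of all genes and contained the other 3 shares of all genes. For H3K27ac the order was not the same along the CpG ratio. With a ratio between 0.616 and 0.742, 6 of 10 FOX and SOX starts had H3K27ac (60.0%, beside 34.9% of all). Above 0.742, 9 of 43 had it (20.9%, beside 35.4%). For H3K4me3 the FOX and SOX share was the lower one in each range of the ratio. Between 0.616 and 0.742, 5 of 10 had H3K4me3 (beside 56.8% of all), and above 0.742, 21 of 43 (48.8%, beside 62.2%). Between 0.324 and 0.616 it was 0 of 11 (beside 37.2%), and below 0.324, 0 of 2 (beside 3.54%). The 11 include FOXD4L1, FOXD4L2, FOXD4L4, FOXD4L5, FOXD4L6 and FOXO3B, and the 10 with ratios between 0.616 and 0.742 include FOXD4 and FOXD4L3. Most of the start sequence of these genes occurs elsewhere in the assembly, so a missing peak there is uncertain.

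Of the 35 FOX and SOX starts with neither mark, 21 were CpG-rich. Of the 18 FOX and SOX starts that were not CpG-rich, 14 had neither mark (77.8%, beside 68.2% of all such starts). These 14 include FOXD4, FOXD4L1, FOXD4L2, FOXD4L4, FOXD4L5, FOXD4L6 and FOXO3B. Most of their start sequence occurs elsewhere in the assembly, as described below, so the higher share cannot be read as a lack of marks. The median CpG ratio of the 35 starts with neither mark was 0.760, beside 0.412 for the 10551 such starts over all genes. Among all genes the ratio was higher where marks were found (0.707 with both marks), whereas the 11 FOX and SOX starts with both marks had a median of 0.754. FOXI3, a forkhead factor of ectodermal development whose upstream bases are shown above, had the highest ratio of all members, 1.02, with no peak of either mark within 100 kb of its start. FOXK2, with 1.005, had both marks. FOXN1, a factor of thymic epithelium, had a ratio of 0.265 and no mark at its start.

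**Figure D2:**
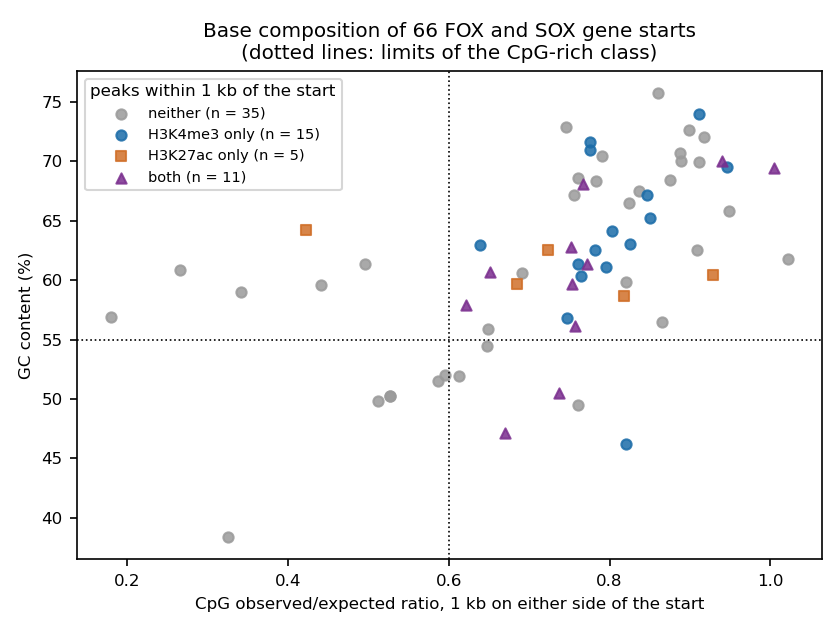
CpG observed/expected ratio (horizontal axis) and GC content (%, vertical axis) of the 1 kb on either side of each of the 66 FOX and SOX starts, coloured by the marks within 1 kb. Dotted lines are the limits of the CpG-rich class. The 35 unmarked starts spread over the whole range of the ratio, and 21 of them lie in the CpG-rich corner among the marked ones.

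In 8 of the unmarked members more than 50% of the sequence around the start occurs elsewhere in the assembly. They are FOXD4, its copies FOXD4L1 to FOXD4L6, and FOXO3B. Reads from such copies are often discarded or shared between copies, so the absence of a peak there is uncertain. Without them, 26 of 58 starts had H3K4me3 (44.8%, 31.7 to 58.5), 16 had H3K27ac (27.6%, 16.7 to 40.9) and 27 had neither (46.6%, 33.3 to 60.1). Only 1 of the 8 was CpG-rich. Without it, 23 of 47 CpG-rich starts had H3K4me3 (48.9%, 34.1 to 63.9). This interval contained the 63.2% of all CpG-rich starts, which the interval with that gene had not. Multi-copy starts were taken out of the FOX and SOX genes only. The shares of all genes, 39.9% for H3K4me3, 24.7% for H3K27ac and 54.9% for neither, still include such starts, as does the 63.2%.

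By class, all 3 FOXJ genes and both FOXK genes had H3K4me3, as did 3 of 4 FOXN, 3 of 4 FOXL (with FOXL2NB), 2 of 3 FOXP and 2 of 4 FOXO genes. Neither mark was found at the outer start of any gene of the FOXE, FOXF, FOXG, FOXI, FOXR and FOXS classes. Factors of these classes act in the development of the thyroid, lens, mesenchyme and ear among others. FOXR1 had H3K27ac within 1 kb of another of its transcript starts. Of the 10 FOXD genes, FOXD2 and FOXD3 had H3K4me3 and none had H3K27ac. Among SOX genes, all 3 of group D (SOX5, SOX6 and SOX13) had H3K4me3 at the outer start, although SOX5 and SOX6 had neither mark at their canonical starts, 613 and 383 kb away, and none of the 3 of group F (SOX7, SOX17 and SOX18, factors of endoderm and vessels) had a mark at its start. Group B had marks at 1 of 4 starts, SOX2, and group E at 1 of 3, SOX9.

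**Figure D3:**
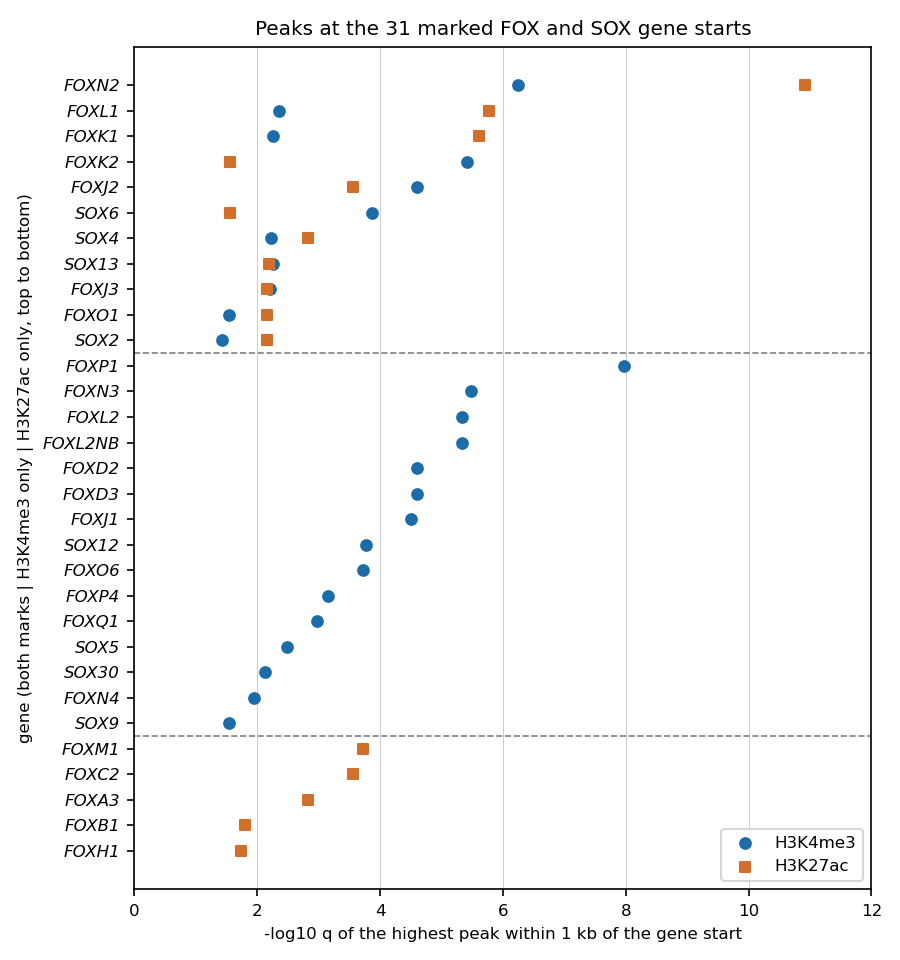
The −log10 q of the highest H3K4me3 (circles) and H3K27ac (squares) peak within 1 kb of the start of the 31 FOX and SOX genes with either mark. Dashed lines separate genes with both marks, H3K4me3 only and H3K27ac only. FOXN2 has the highest H3K27ac value, 10.9, and FOXP1 the highest H3K4me3 value, 7.97, and apart from the H3K4me3 value of FOXN2, 6.25, all other points lie below 6.

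The strongest H3K27ac at a FOX or SOX start was that of FOXN2, a widely made forkhead factor (chr2:48541776-48606434, plus strand). Its H3K27ac peak, chr2:48542187-48542617 in the intron after exon 1, had a −log10 q of 10.9, above 99.7% of the list and 30th among the 4743 genes with such a peak. H3K4me3 lay on either side, with 6.25 over exon 1 and 1.55 in the intron, where it overlapped the acetylated peak. No other H3K27ac peak was found within 50 kb of the gene.

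The FOXK pair, repressors of autophagy and regulators of glycolysis, had opposite orders of values. FOXK1 had an H3K27ac peak of 1050 bp with 5.62, reaching into the coding part of exon 1, and an H3K4me3 peak with 2.26. FOXK2 had an H3K4me3 peak of 832 bp with 5.41 and an H3K27ac peak with 1.55. Since the values of different lists share no scale, these orders can be read only within a mark: for H3K27ac FOXK1 stood above 89.7% and FOXK2 above 5.19% of marked starts, and for H3K4me3 FOXK1 stood above 18.2% and FOXK2 above 75.05%. FOXL1, a factor of gut and lung mesenchyme, resembled FOXK1, with 5.77 for H3K27ac and 2.36 for H3K4me3, both in the intron that the annotation gives downstream of its start. Under the canonical transcript of the annotation FOXL1 had neither mark within 1 kb.

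FOXJ2, a widely made factor, had 4.60 for H3K4me3 and 3.55 for H3K27ac, and FOXJ3 had 2.21 and 2.16, with its acetylated peak 931 bp from the start. FOXO1, which acts downstream of insulin and AKT signalling, had 1.55 for H3K4me3 and 2.16 for H3K27ac over exon 1, and a higher H3K4me3 peak, 3.76, in the intron 1175 bp from the start. FOXO3, of the same class, had no mark at its start. Its nearest H3K4me3 peak was 288658 bp from the start and its nearest H3K27ac peak 173209 bp, although its start is CpG-rich with a ratio of 0.948. FOXO6 had H3K4me3 alone, with 3.72.

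Of the SOX genes, 4 had both marks. SOX2, a factor of stem cells and of the foregut, had 1.43 for H3K4me3 over its coding exon and 2.16 for H3K27ac upstream. The H3K27ac peaks within 1 kb lay 413 and 905 bp from the SOX2 start. They lay 226 and 718 bp from the start of a long non-coding gene, ENSG00000289435. A stronger H3K4me3 peak, 4.27, lay 1157 bp from the SOX2 start, outside the distance used, and overlapped the widest acetylated peak. SOX4, which is often raised in carcinomas, had 2.23 and 2.82. SOX6 and SOX13, of group D, had 3.87 and 2.26 for H3K4me3 and 1.55 and 2.20 for H3K27ac. The SOX13 H3K27ac peak lay 607 bp from its start and 28 bp from that of the long non-coding gene ENSG00000286572. The median of the highest H3K4me3 value at a marked start was 2.24 over the 8 SOX genes and 4.55 over the 18 FOX genes, beside 3.76 over all 7675 marked genes. For H3K27ac these medians were 2.18, 3.19 and 3.05. With 8 and 4 SOX starts, and no replicate, whether these medians differ was not tested.

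FOXP1, a factor of lung and lymphoid development (chr3:71003844-71633129, minus strand), had the highest H3K4me3 value, 7.97, and 3 peaks that covered 1492 bp within 1 kb of its start, more than 99.1% of all genes. No H3K27ac peak lay within 1 kb, but the nearest was 1143 bp away inside the gene, just beyond the limit, and counting every annotated transcript start gave FOXP1 both marks. After FOXP1 and FOXN2, the highest H3K4me3 values were those of FOXN3 (5.47), FOXK2 (5.41) and FOXL2 (5.34), whose peak is shared with FOXL2NB. FOXJ1, the master factor of motile cilia, had an H3K4me3 peak of 830 bp with 4.50 that began 5 bp from the start, and no H3K27ac within 1 kb. All 5 H3K27ac peaks nearest to the FOXJ1 start lay between 2.55 and 9.21 kb downstream of it, with values of at most 2.44. FOXQ1, an epithelial forkhead factor, had H3K4me3 across its start with 2.97.

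H3K27ac without H3K4me3 was found at FOXA3, FOXB1, FOXC2, FOXH1 and FOXM1. FOXM1, which drives mitotic genes, had an H3K27ac peak with 3.71 over exon 1 and its nearest H3K4me3 peak was 13752 bp from the start. The start of TULP3 lies 49 bp from that of FOXM1 on the opposite strand, and the peak also overlaps the neighbouring gene RHNO1, so it cannot be assigned to 1 of these genes. The peak at FOXA3 was 898 bp from its start and 103 bp from that of SYMPK. In all, 7 members had another protein-coding start within 1 kb, among them SOX30, whose H3K4me3 peak (2.12) covers both its start and that of C5orf52, 53 bp away.

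FOXC1, FOXF1, FOXE1 and SOX17 had no mark at the start. FOXC1, a mesenchymal factor, had an H3K27ac peak 1186 bp from its start with 1.55, and 3 more between 26.9 and 29.1 kb. FOXF1, a factor of lung mesenchyme and vessels, had its nearest H3K27ac peak 44184 bp and its nearest H3K4me3 peak 44302 bp from the start. FOXE1, a thyroid factor, had no peak of either mark within 50 kb of the gene, and the nearest H3K4me3 peak to the start of SOX17, an endodermal factor, was 12.4 kb away. The values just outside the 1 kb limit were those of FOXP2 (H3K27ac, 1058 bp), SOX21 (H3K4me3, 1103 bp), FOXP1 (H3K27ac, 1143 bp), SOX2 (H3K4me3, 1157 bp), FOXO1 (H3K4me3, 1175 bp) and FOXC1 (H3K27ac, 1186 bp). Just inside it were FOXJ3 (931 bp), FOXC2 (921 bp), SOX4 (918 bp) and SOX2 (905 bp), all for H3K27ac.

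Peaks at the starts lay mostly downstream, over the transcribed part. Of the 34 distinct H3K4me3 peaks at FOX and SOX starts, 25 had their centre downstream of the start, with a median offset over the 34 of 404.5 bp, and 6 covered the start. Of the 19 H3K27ac peaks, 12 had their centre downstream and 1 covered the start. At this resolution the marks often sat side by side, and 8 of the 19 H3K27ac peaks overlapped an H3K4me3 peak. Positions and overlaps at the starts of all genes were not measured, so these counts are not shown to be particular to FOX and SOX starts.

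**Figure D4:**
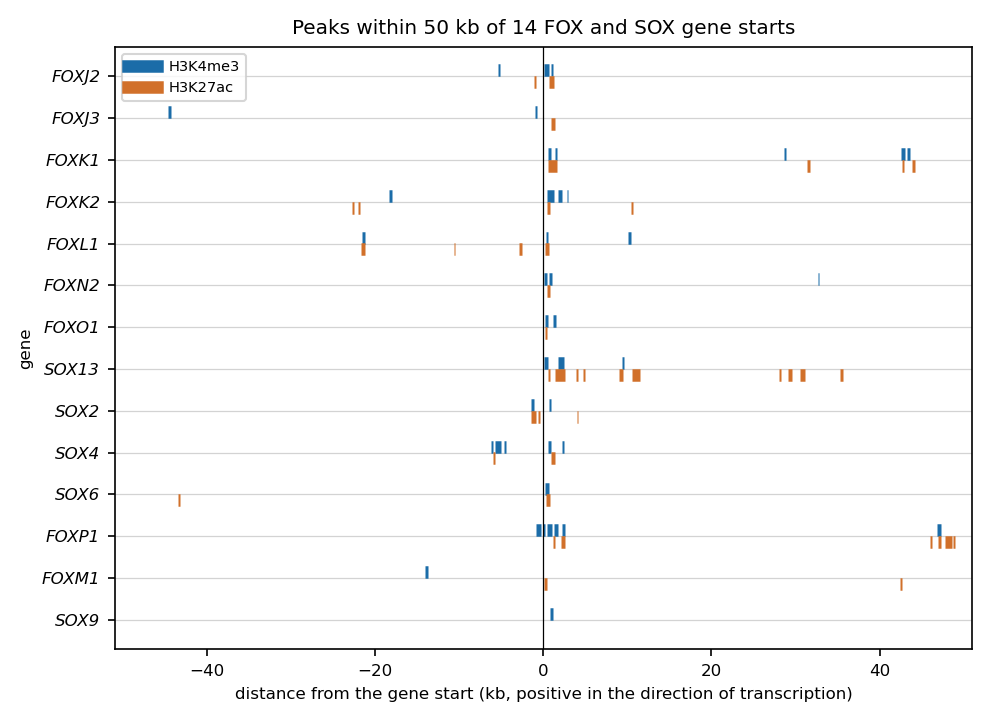
Peaks of H3K4me3 (upper, blue) and H3K27ac (lower, orange) within 50 kb of the start of the 11 FOX and SOX genes with both marks and of FOXP1, FOXM1 and SOX9, drawn to scale by distance from the start (kb, positive in the direction of transcription). SOX13 has a string of H3K27ac peaks inside the gene, FOXM1 has an acetylated peak but no H3K4me3 at the start, and SOX9 has its start peak alone.

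Over the gene with 50 kb on either side, 47 of the 66 genes had an H3K4me3 peak (71.2%, 58.7 to 81.7, beside 73.1%) and 39 an H3K27ac peak (59.1%, 46.3 to 71.0, beside 66.8%). The median was 1 peak of each mark per gene, beside 2 for all genes. FOX and SOX genes are short, with a median window of 105 kb beside 128 kb, and per 100 kb the medians were 0.822 and 0.945 for H3K27ac and 0.971 and 1.17 for H3K4me3. Without the 8 multi-copy genes, the FOX and SOX medians per 100 kb were 0.952 for H3K27ac and 0.974 for H3K4me3. An H3K27ac peak was then found in 38 of 58 windows (65.5%) and an H3K4me3 peak in 45 (77.6%). The set of all genes was not reduced in this way. Of the 168 distinct H3K27ac peaks in the windows of all 66 genes, 18 had a member's start as their nearest protein-coding start within 1 kb. A further 27 had that of another gene (among them the peak between FOXA3 and SYMPK), and 123 had none within 1 kb. H3K4me3 overlapped 51 of the 168 (30.4%), and the share over all H3K27ac peaks was not measured.

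SOX13, of group D, had the longest length under H3K27ac peaks (chr1:204042243-204096871, plus strand). It had 17 peaks over 8274 bp in its window, above 98.8% of all genes by length, and 10 of the 15 that lay over 1 kb from any protein-coding start were inside the gene. Of the 10, 1 lay 571 bp from the start of a long non-coding gene, ENSG00000286572. The highest value inside the gene was 5.53, at 3.87 kb from the start. The highest of the window, 8.12, was 58200 bp from the start, past the end of SOX13 and over ETNK2. FOXP1 had 15 H3K27ac peaks over 4642 bp, all inside the gene and none within 1 kb of any protein-coding start, and FOXK1 had 12 over 4528 bp, 9 of them inside the gene and over 1 kb from protein-coding starts. Within FOXK1, 2 of these lay 213 and 766 bp from the start of a long non-coding gene, ENSG00000287665. In these 3 genes most of the H3K27ac peaks lay inside the gene. Their windows were long, 155 kb for SOX13, 189 kb for FOXK1 and 729 kb for FOXP1, and a longer gene fills more of its window. By share of the window under H3K27ac peaks, FOXP1 had 0.637% and FOXK1 2.39%, beside a median of 0.297% for all genes.

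The other genes among the 10 longest by H3K27ac had windows of 102 to 110 kb, mostly flank, and more of their H3K27ac lay outside the gene. By share of the window, FOXH1 (8.05%) and FOXR1 (6.29%) stood above SOX13 (5.35%). FOXH1, a partner of SMAD proteins, had 16 peaks over 8251 bp, 6 of them at other starts, and none of the 8 away from protein-coding starts was inside the gene. FOXR1, a factor of germ cells, had 15 peaks over 6897 bp, with 4 at other starts, and its window held an H3K4me3 peak with 20.1. SOX18 had 9 peaks over 4852 bp, 2 of them at other starts. SOX12, of group C, had 10 peaks over 3288 bp, 9 of them away from protein-coding starts, and SOX15 had 6 over 2485 bp, 4 of them at other starts. FOXJ1 with 1586 bp and FOXD1 with 1494 bp completed the 10 longest. At FOXD1, a factor of kidney stroma, peaks of both marks (6.25 for H3K4me3 and 5.92 for H3K27ac) overlapped 2.33 and 2.48 kb upstream of the start, over the start of the non-coding gene LINC01385.

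A window of 50 kb misses distal peaks, so each peak was also assigned to the nearest protein-coding start, a measure added after the data had been examined. At least 1 H3K27ac peak was nearest to 36 of the 66 genes (54.5%, beside 44.2% of all), with a mean of 2.14 peaks per gene beside 1.25. For H3K4me3 the shares were 57.6% and 50.9%, and the means 1.61 and 0.965. The next protein-coding start was far from some FOX and SOX starts, for example 971690 bp between those of SOX9 and SLC39A11. Such distances were not compared with those of all genes, and the part they play in the counts was not tested.

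SOX9, a factor of cartilage and of distal lung progenitors (chr17:70117161-70122557, plus strand), held the highest number. At its start it had only an H3K4me3 peak of 1.55, within the intron, and no H3K27ac peak lay within 50 kb of the gene. Nonetheless 21 H3K27ac peaks had the start of SOX9 as their nearest protein-coding start, and 36 of the 19229 genes had more. Distance to the bodies of other coding genes was not measured. They lay 239 to 931 kb from the start, and 19 of them were downstream, inside the long non-coding gene LINC00511 (chr17:70286232-70636611). None of the 21 overlapped an H3K4me3 peak. The strongest had 5.98 at 481 kb and 5.12 at 300 kb, and the peak whose letters are shown above had 3.999 at 301 kb. Of the 7 H3K4me3 peaks nearest to the SOX9 start, 6 were also inside LINC00511, with the highest, 9.41, at 471 kb. Whether these regions act on SOX9, on LINC00511 or on neither was not measured.

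**Figure D5:**
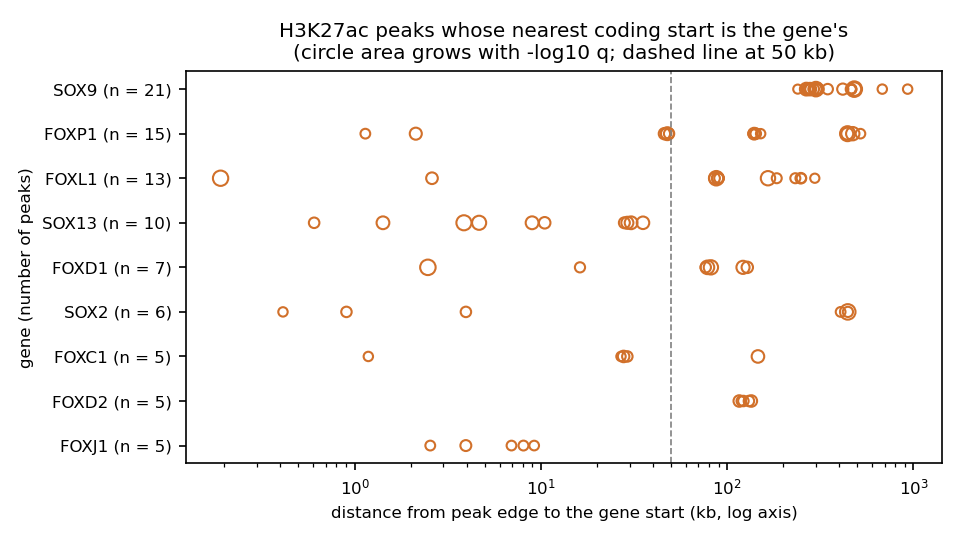
Distance (kb, log axis) from the gene start of every H3K27ac peak whose nearest protein-coding start is that of the named gene, for the 9 FOX and SOX genes with at least 5 such peaks. At least 5 such peaks were found for 9 of 66 FOX and SOX genes and for 6.73% of all autosomal protein-coding genes. Circle area grows with −log10 q, and the dashed line marks 50 kb. All 21 peaks of SOX9 and all 5 of FOXD2 lie beyond the line, whereas the 10 of SOX13 and the 5 of FOXJ1 lie within it.

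FOXP1 followed with 15 H3K27ac peaks between 1.14 and 520 kb from its start and 12 H3K4me3 peaks, and 5 of the 15 overlapped H3K4me3. FOXL1 had 13, of which 11 lay beyond 50 kb, on chromosome 16 beside FOXC2, whose start is 9539 bp away. SOX2 had 6, with 3 of them near the gene and 3 at 407 to 445 kb, the highest with 5.92. FOXD2 had 5 at 116 to 135 kb. SOX11, of group C, had neither mark at its start and 4 H3K4me3 peaks that were at least 311 kb away.

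The letters of forkhead and SOX sites were searched on both strands of the H3K27ac peaks. TGTTTAC, a forkhead core, was found in 4 of the 168 peaks in FOX and SOX windows (2.38%, 0.652 to 5.98), beside 1.87% of all 24063 autosomal H3K27ac peaks. CATTGT, a SOX core, was found in 18 of the 168 (10.7%, 6.47 to 16.4), beside 8.22%. The median width was 292.5 bp in the windows and 284 bp over all, and 1 peak in the window of SOX12 held both motifs. The shares of these windows lay near those of all peaks. Around SOX2 all 3 peaks held CATTGT or its complement, and a match is a description of letters and not a bound site.

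Genes that act with these factors were counted at their starts. Of 24 regulators and targets of FOXO factors, 14 had H3K4me3, 9 had H3K27ac and 8 had both, where all genes had 39.9%, 24.7% and 19.4%. PIK3CA, a kinase subunit upstream of AKT, had 5.41 for H3K4me3 and 6.88 for H3K27ac, and BCL2L11, which encodes a cell death factor, had 2.91 and 5.82. CDKN1A and CDKN1B, which encode inhibitors of the cell cycle, had neither mark within 1 kb. Of 18 partners and targets of FOXM1, 13 had H3K4me3, 9 had H3K27ac and 8 had both, against the same shares of all genes, with CENPF, a kinetochore protein, at 8.36 and 2.82, and CCNB2, a mitotic cyclin, at 2.49 and 6.73. AURKB, BIRC5, CDC25B and LIN37 had neither. Of 12 partners of SOX factors, 3 had H3K4me3 (POU2F1, TLE1 and TLE3) and none had H3K27ac, beside 39.9% and 24.7% of all genes. The 9 with neither were CTNNB1, TCF7L2, LEF1, TCF7, POU5F1, POU3F2, PAX6, NANOG and SMARCA4.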

How the data were processed

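Peak lists of H3K27ac and H3K4me3 ChIP-seq were analysed, with 1 library per mark. According to the submitters' processing notes, Bowtie 1.1.1 and MACS2 2.1.0 were used, on build hg19. The threshold of the peak calls, the treatment of duplicates and the use of the input in calling are not given in the sources used here. The deposited lists hold intervals and a last column without a header, which was taken, from its values, as the −log10 q of each summit as called by the authors. Entries of the same interval were joined, keeping the highest value. Gene starts were the outer 5′ ends of autosomal protein-coding genes in GENCODE 44 lifted to hg19, and positions are counted from 1. A peak was at a start when its edge lay within 1 kb. Base composition and letters came from the GRCh37 primary assembly. Multi-copy starts were those where more than 50% of 32-base words, taken every 20 bases, were also present elsewhere.

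The members and gene lists were chosen with earlier results of these data known. Genes named with values were every gene with both marks at its start, the 10 with the longest H3K27ac in the window, the 5 with the highest H3K4me3 at the start, and 14 fixed genes (SOX2, SOX4, SOX9, SOX17, FOXM1, FOXO1, FOXO3, FOXP1, FOXC1, FOXF1, FOXJ1, FOXE1, FOXQ1 and FOXK1). Others were named after their values were seen. Of 9 markers of other cell types listed, 7 were found among autosomal genes. Interval code was tested on simulated peaks. Alternatives were the distance, the start, the flank, the peaks kept and the members kept. Python 3.11.15, pandas 2.3.3, numpy 2.4.6, scipy 1.17.1 and matplotlib 3.10.9 were used. Some items are not reported here.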

Additional observations from a re-analysis of the deposited data

How the results depend on the processing

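Of 54 alternatives over 7 results, 41 moved the value by less than the limits set for it, and 13 moved it further. Within 500 bp of the start, 9 FOX and SOX genes had H3K27ac (13.6%, beside 18.6% of all genes) and 5 both marks (7.58%, beside 13.2%), in place of 16 and 11. With only the peaks above the median of each list, 15 had H3K4me3, 8 H3K27ac (22.7% and 12.1%, beside 28.0% and 15.6%) and 2 both marks (3.03%, beside 10.5%), and the median number of H3K27ac peaks per window was 0. With a −log10 q of at least 5, 6 had H3K4me3 (9.09%, beside 11.2% of all genes) and 3 H3K27ac (4.55%, beside 3.70%). At that limit 1 had both (1.52%, beside 1.64%) and 58 neither (87.9%, beside 86.7%). The median number of H3K27ac peaks was 0 with a flank of 10 kb and 2 without the multi-copy genes, and that of H3K4me3 was 2 with a flank of 100 kb, in place of 1. Counting the starts of every transcript altered the marks of 4 genes (FOXO6, FOXP1, FOXR1 and SOX30), and the canonical transcript alone altered 8 (FOXA3, FOXJ3, FOXL1, FOXN3, FOXP1, SOX30, SOX5 and SOX6), of which FOXA3, FOXL1, FOXN3, SOX5 and SOX6 were left with neither mark. No paired analysis was possible because there was a single library of each mark. Depth is unknown, so whether unmarked starts lacked the mark or the reads was not tested. The assignment of peaks to the nearest start and the choice of printed regions were made after the data had been examined.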
